A study of Mus musculus with 12 samples.

Results

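The aminoacyl-tRNA synthetases, the enzymes that load each tRNA with its amino acid, were followed in donor CD4+ T cells at the start of a graft-versus-host response. The set was a list of 37 cytosolic and mitochondrial synthetase genes, drawn up because 1 of them, Tarsl2, fell with both ligands of the aryl hydrocarbon receptor (AhR) tested; Tarsl2 was thus selected on its measured differences from vehicle. The other genes entered by name and not by their values, though the list was drawn up with earlier results of these data known. Of the 37, 35 were measured among 19938 genes: 34 under the listed symbol and Mars through its Entrez identifier. Aars shared its probe set with another gene and Dars was not listed in the probe table, so neither was analysed here. Of the measured genes 19 encode cytosolic enzymes (Gars and Kars also serve mitochondria) and 16 mitochondrial ones.

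Spleen cells of C57Bl/6 mice, stained with the division dye CFSE, were injected into B6D2F1 hosts, which carry foreign parental antigens that the donor T cells attack. All mice were 10 to 12 weeks old. The hosts received vehicle on days 0 and 1, 15 µg/kg TCDD on day 0 only, or Cl-BBQ at 2 mg/kg on both of these days. On day 2 (48 hr) donor CD4+ cells that had divided at least 2 times were purified from spleen and lymph node with magnetic beads and flow sorting, and RNA of 4 hosts per group was put on 1 array each. TCDD is a persistent chlorinated dioxin that binds AhR, a ligand-activated transcription factor, and Cl-BBQ is another AhR ligand. The ligands were given to the host and reach donor and host cells alike, and doses and schedules differed between them. Values are log2 intensities, and a difference of 1 is a doubling.

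A synthetase activates its amino acid with ATP and transfers it to the matching tRNA, which makes these enzymes essential in every cell that translates. They fall into classes I and II by the fold of the catalytic domain. In the cytosol several are held together in the multisynthetase complex, and mitochondria import a largely separate set from nuclear genes. T cells raise protein synthesis steeply after activation. Many cytosolic synthetase genes are known targets of ATF4, the transcription factor of the amino acid response. Threonyl-tRNA synthetase has 3 genes here: Tars for the main cytosolic enzyme, Tars2 for the mitochondrial enzyme, and Tarsl2 for a paralog of Tars (also named Tars3) with a different N-terminal part.

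As a measured check of exposure, Cyp1b1, a cytochrome P450 gene and known AhR target, lay at 9.67 to 9.92 with TCDD against 6.25 to 6.57 with vehicle. With Cl-BBQ it lay at 8.24, 7.90 and 7.89 in replicates 1, 2 and 4, but at 5.93 in replicate 3, below all vehicle arrays. Nqo1, a quinone reductase gene and another AhR target, lay at 6.59 on that array, just above the vehicle range of 6.10 to 6.52, and at 7.03 to 7.67 on the other Cl-BBQ arrays and 7.85 to 8.27 with TCDD. Because of replicate 3, results below are also given without it where they lead. Cd4 (12.29 to 12.55 over all arrays) and Cd3e (12.81 to 13.05), the markers of the sorted cell, were high on every array.

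The sequence before the annotated start of each threonyl-tRNA synthetase gene is shown so that Tarsl2 can be set beside the other genes for the same amino acid. The sequences are from RefSeq (GRCm38.p6), cover the 250 bases before the start, and run 5′ to 3′ on the strand of the gene: chr7:65644648-65644897 (+) for Tarsl2, chr15:11399659-11399908 (-) for Tars and chr3:95754978-95755227 (-) for Tars2. Capitals mark matches to the motifs searched.
Tarsl2: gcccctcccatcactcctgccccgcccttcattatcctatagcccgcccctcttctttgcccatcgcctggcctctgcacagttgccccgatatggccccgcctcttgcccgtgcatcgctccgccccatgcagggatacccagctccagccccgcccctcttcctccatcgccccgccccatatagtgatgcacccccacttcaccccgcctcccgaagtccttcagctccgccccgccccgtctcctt
Tars: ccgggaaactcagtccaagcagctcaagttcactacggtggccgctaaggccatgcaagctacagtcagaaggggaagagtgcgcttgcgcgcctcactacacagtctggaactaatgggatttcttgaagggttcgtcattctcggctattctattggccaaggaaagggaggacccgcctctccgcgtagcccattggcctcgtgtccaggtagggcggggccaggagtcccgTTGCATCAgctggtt
Tars2: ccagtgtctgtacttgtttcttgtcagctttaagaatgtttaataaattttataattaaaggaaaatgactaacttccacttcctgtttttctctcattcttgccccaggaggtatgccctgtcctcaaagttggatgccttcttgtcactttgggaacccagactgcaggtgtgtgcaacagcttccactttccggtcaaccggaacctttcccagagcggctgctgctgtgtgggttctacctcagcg
On both strands a script looked for the AhR core GCGTG, the ATF4 composite site TGATGNAA and the MYC E-box CACGTG, which do not overlap in these windows; the search, in these genes and in all others, covered the same 250 bases. The Tarsl2 window, with 66.8% G and C, held none of the 3 motifs. The Tars window held 1 match, the ATF4 composite on the opposite strand (TTGCATCA), whose first base lies 15 bases before the start. The Tars2 window held none. Of the 37 listed genes 28 had such windows, 29 in all. The ATF4 composite was found in 3 of the 29 (10.3%, those of Aars, Gars and Tars, all cytosolic), against 3.45% of 32851 windows of all genes. The AhR core was found in 12 of the 29 (41.4%), against 28.2% of all windows. Of those 12 genes Dars was not measured, and none of the other 11, among them Mars, Ears2, Fars2 and Nars2, was called in the comparisons below. The MYC E-box was found in 3 (Aars, Farsb and Iars; 10.3% against 6.02%). A match is only a match of letters, and its absence from a window says nothing of the factor.

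The first comparison asked what a dose of TCDD to the host changed in these genes. Tarsl2 was read at 8.93, 8.59, 8.51 and 8.99 on vehicle arrays 1 to 4 and at 7.71, 7.88, 7.94 and 7.89 on TCDD arrays 1 to 4. All TCDD arrays lay below all vehicle arrays, and the lowest vehicle array was 8.51 where the highest TCDD array was 7.94. The means were 8.76 ± 0.24 and 7.86 ± 0.10 (SD, n = 4 each), a log2 difference of -0.90, or 1.87-fold lower. This gene was chosen for that fall, so the difference is a description and carries no test. The vehicle arrays themselves fell into a higher pair (1 and 4) and a lower pair (2 and 3).

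**Figure D1:**
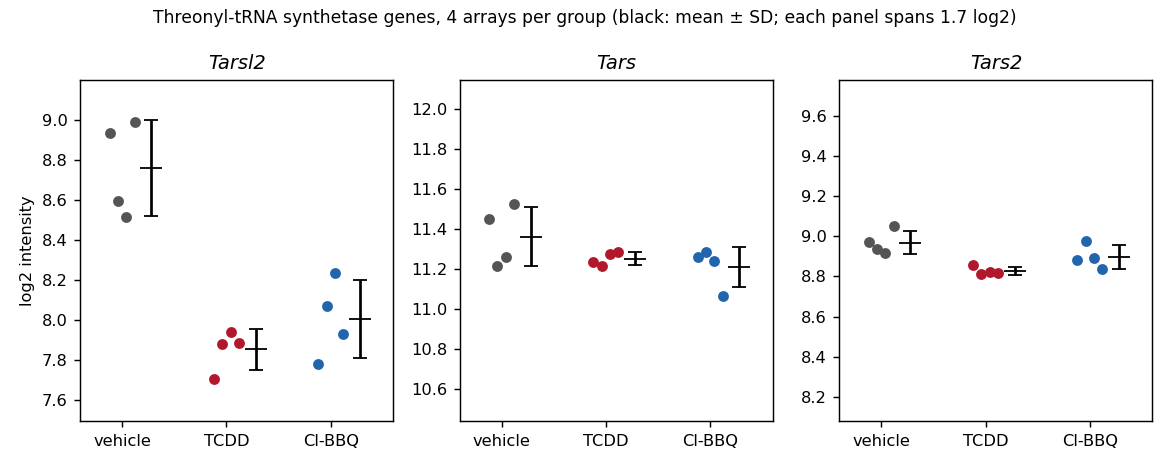
Log2 intensity (vertical axis) of Tarsl2, Tars and Tars2 on the 4 vehicle, 4 TCDD and 4 Cl-BBQ arrays; points are arrays, black marks the mean and SD, and every panel spans the same number of log2 units at a different level. Tarsl2 lies between 7.71 and 8.24 on all ligand arrays and between 8.51 and 8.99 on vehicle arrays, whereas the groups of Tars overlap.

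The paralog Tars, the main cytosolic enzyme for threonine, stood at 11.45, 11.22, 11.26 and 11.52 with vehicle and at 11.24, 11.21, 11.27 and 11.28 with TCDD. The groups overlapped: the TCDD arrays lay near the lower vehicle pair. Its log2 difference was -0.11 (95% interval -0.25 to 0.03; limma adjusted p = 0.741). Tars2, the mitochondrial enzyme, was at 8.97, 8.94, 8.92 and 9.05 with vehicle and at 8.86, 8.81, 8.82 and 8.81 with TCDD. Its groups did not overlap, since its arrays varied little, but the difference of -0.14 (interval -0.28 to -0.01) did not pass over all genes (adjusted p = 0.52).

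None of the 34 members other than Tarsl2 was called with TCDD at an adjusted p under 0.05 in limma, where 1.24% of all genes were called (0.366% lower and 0.873% higher), and 5 of 34 had an unadjusted p under 0.05, all of them lower (Farsb, Cars2, Ears2, Rars2 and Tars2), against 8.69% of all genes in either direction and 4.00% in the lower direction. Their differences ran from -0.23 to 0.11, and no interval among them reached beyond -0.48 or 0.26. The difference of Tarsl2 (-0.90) lay outside every one of these intervals. That value chose the gene, so this is no test that Tarsl2 stands apart from the others. The median difference was -0.06, against 0.0042 over all genes and -0.014 over the 4451 genes brighter than the median member. It was below 0 for 31 of 34 members and for 47.9% of all genes (57.5% of the brighter ones). The members share arrays and are not independent of each other, and without vehicle replicate 1 the number below 0 was 24 (median -0.05), without vehicle replicate 4 it was 26 (median -0.04), and without vehicle replicate 2 it was 32 (median -0.09).

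**Figure D2:**
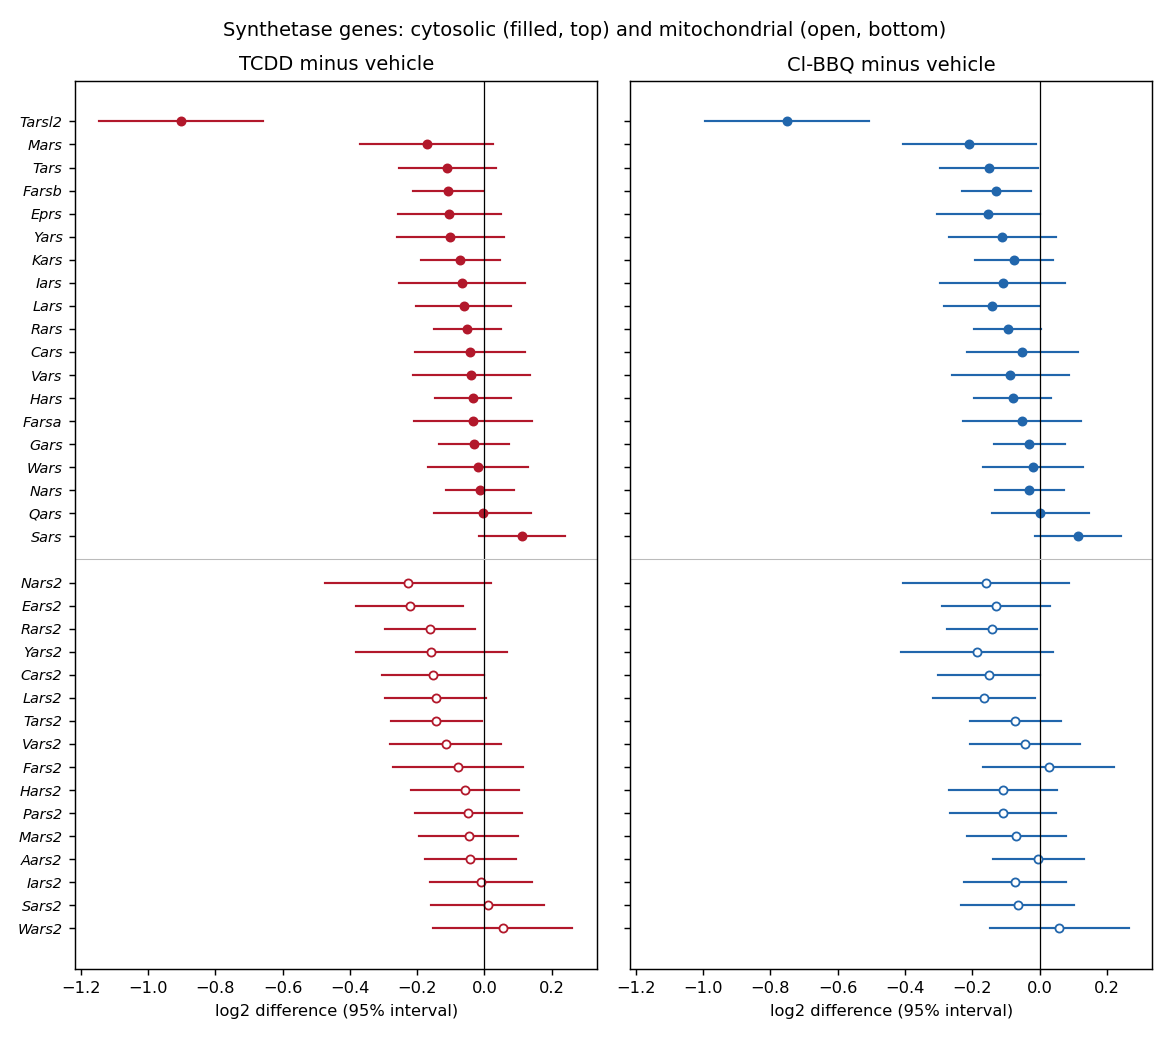
Log2 difference from vehicle (horizontal axis) with its 95% interval for each measured synthetase gene, with TCDD on the left and Cl-BBQ on the right; filled points are cytosolic and open points mitochondrial genes. Tarsl2 lies at -0.90 and -0.75, and every other gene lies between -0.23 and 0.11. Tarsl2 was chosen for these falls, so its intervals are drawn as a description and are no test.

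The multisynthetase complex was represented by 7 of its 8 listed synthetases. With TCDD all 7 had a difference below 0, none was called, and the median was -0.07. Mars, which charges methionine tRNA including that of the initiator, was furthest from 0: it read 9.88, 9.49, 9.61 and 9.76 with vehicle and 9.54, 9.43, 9.58 and 9.51 with TCDD (difference -0.17, interval -0.37 to 0.03; adjusted p = 0.673). Vehicle replicates 2 and 3 lay within the TCDD range or close to it, so the groups overlapped. Eprs, a fusion of the glutamyl and prolyl enzymes, differed by -0.10, Kars (lysine) by -0.07, Iars (isoleucine) by -0.07, Lars (leucine) by -0.06, Rars (arginine) by -0.05 and Qars (glutamine) by -0.0057. Iars had a second probe set, which differed by -0.12 and was not called either.

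Among the other cytosolic genes, Farsb, the beta chain of the phenylalanyl enzyme, was the member of this group whose arrays did not overlap with TCDD: vehicle arrays read 11.94, 11.79, 11.81 and 11.97 and TCDD arrays 11.78, 11.77, 11.74 and 11.78. The gap between the groups was small and the difference was -0.11 (adjusted p = 0.535). Its partner Farsa, the alpha chain, differed by -0.03. Sars, the seryl enzyme, which also charges the tRNA on which selenocysteine is made, was the cytosolic gene with the highest difference: 11.70, 11.53, 11.54 and 11.75 with vehicle against 11.71, 11.78, 11.65 and 11.83 with TCDD (0.11, interval -0.02 to 0.24; adjusted p = 0.672). Its groups overlapped. Yars (tyrosine) differed by -0.10, Cars (cysteine) by -0.04, Vars (valine) by -0.04, Hars (histidine) by -0.03, Gars (glycine) by -0.03, Wars (tryptophan, known as an interferon-induced gene) by -0.02 and Nars (asparagine) by -0.01.

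Of the 16 mitochondrial genes 14 had a difference below 0 with TCDD, with a median of -0.10, and none was called. Ears2, the glutamyl enzyme, which charges both glutamate and glutamine tRNAs in mitochondria, read 7.67, 7.83, 7.59 and 7.67 with vehicle and 7.29, 7.51, 7.58 and 7.50 with TCDD. The groups did not overlap, by a narrow margin, and its difference of -0.22 had the lowest adjusted p of the 34 (0.28). Nars2, the asparaginyl enzyme, read 8.73, 8.20, 8.53 and 8.81 with vehicle and 8.21, 8.18, 8.43 and 8.53 with TCDD. Its difference was about as large (-0.23) but its spread was wide, with vehicle replicate 2 among the TCDD values (adjusted p = 0.63). Rars2, the arginyl enzyme, stood at 10.27, 10.08, 10.10 and 10.30 with vehicle and at 10.01, 10.05, 10.04 and 10.01 with TCDD, with no overlap and a difference of -0.16 (adjusted p = 0.417). In all, 4 of 34 members had groups that did not overlap (Farsb, Ears2, Rars2 and Tars2, all lower with TCDD), against 5.80% of all genes in either direction and 2.65% in the lower direction. The remaining mitochondrial genes were Yars2 at -0.16, Cars2 at -0.15, Lars2 at -0.15, Vars2 at -0.12, Fars2 at -0.08, Hars2 at -0.06, Pars2 at -0.05, Mars2 at -0.05, Aars2 at -0.04, Iars2 at -0.01, Sars2 at 0.01 and Wars2 at 0.05. Wars2, the highest of them, read 7.92, 7.84, 7.72 and 7.90 with vehicle and 7.81, 7.92, 7.73 and 8.13 with TCDD, with TCDD replicate 4 the highest of these arrays. Sars2 read 8.54, 8.37, 8.38 and 8.58 with vehicle and 8.42, 8.47, 8.46 and 8.57 with TCDD. The groups of both genes overlapped.

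The second comparison set Cl-BBQ, given on 2 days, against the same vehicle arrays, so any shift of those arrays enters both comparisons. Tarsl2 was read at 7.78, 8.07, 8.24 and 7.93 on Cl-BBQ arrays 1 to 4, all below the lowest vehicle array at 8.51. The mean was 8.01 ± 0.19 (n = 4), a log2 difference of -0.75, or 1.68-fold lower than vehicle, again a description of what chose the gene. The smallest fall was on replicate 3, the array without an increase of Cyp1b1; there Tarsl2 lay 0.52 log2 below the vehicle mean (-0.52), and without that array the group difference was -0.83. Across the ligand arrays the lowest Tarsl2 value was on TCDD replicate 1 and the next on Cl-BBQ replicate 1. Relative to the vehicle mean, Cyp1b1 was 3.31 log2 higher on TCDD replicate 1, the smallest rise of the TCDD arrays. On Cl-BBQ replicate 1 it was 1.88 higher, the largest rise of the Cl-BBQ arrays. Whether the 2 genes vary together was not tested.

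Tars was at 11.26, 11.28, 11.24 and 11.06 with Cl-BBQ, within or below the vehicle range of 11.22 to 11.52 (difference -0.15, interval -0.29 to -0.01; adjusted p = 0.609). Tars2 was at 8.88, 8.98, 8.89 and 8.84, also overlapping vehicle (-0.07; adjusted p = 0.818). None of the 34 members other than Tarsl2 was called with Cl-BBQ in limma, where 0.196% of all genes were called (0.0502% lower). An unadjusted p under 0.05 was reached by 7 of 34, all lower (Eprs, Farsb, Lars, Mars, Tars, Lars2 and Rars2), against 7.91% of all genes in either direction and 3.80% in the lower direction. Their differences ran from -0.21 to 0.11, and no interval reached beyond -0.41 or 0.26. The median was -0.08, against 0.011 over all genes and -0.023 over the genes brighter than the median member, and 30 of 34 were below 0, against 45.2% of all genes and 61.7% of the brighter ones. Without vehicle replicate 4 that median was -0.04 with 29 below 0, and without Cl-BBQ replicate 3 it was -0.08 with 29 below 0.

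Mars had the lowest difference of the 34 with Cl-BBQ. It read 9.64, 9.40, 9.58 and 9.29, overlapping vehicle (-0.21, interval -0.41 to -0.01; adjusted p = 0.605). Yars2 followed, with 10.35, 10.22, 10.26 and 9.83 on Cl-BBQ arrays against 10.42, 10.29, 10.18 and 10.52 on vehicle arrays (-0.19; adjusted p = 0.702). In both genes replicate 4 was the lowest Cl-BBQ array. Of the complex, Eprs differed by -0.15, Lars by -0.14, Iars by -0.11, Rars by -0.10, Kars by -0.08 and Qars by 0.0023. Sars again had the highest difference, 0.11, with 11.63, 11.82, 11.73 and 11.81 (interval -0.01 to 0.24; adjusted p = 0.677), and its groups overlapped.

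Of the other cytosolic genes with Cl-BBQ, Farsb differed by -0.13 with the lowest adjusted p of the 34 (0.517), and, apart from Tars and Sars, the rest ranged from Yars at -0.11 to Wars at -0.02. Among mitochondrial genes 14 of 16 were below 0, with a median of -0.09. Lars2, the leucyl enzyme, read 8.36, 8.21, 8.20 and 8.37 with vehicle and 8.09, 8.17, 8.14 and 8.08 with Cl-BBQ, without overlap (-0.17; adjusted p = 0.589). Rars2 read 10.08, 10.03, 10.05 and 10.03, where the lowest vehicle array was barely above the highest of these (-0.14; adjusted p = 0.6). These 2 of 34 were the members whose groups did not overlap, both lower, against 3.85% of all genes in either direction and 1.58% in the lower direction. Fars2 (0.03) and Wars2 (0.06) were the mitochondrial genes above 0; Wars2 read 7.80, 7.81, 7.85 and 8.15, so replicate 4 alone stood above the vehicle range.

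The third comparison set the ligands against each other, at their own doses and schedules. Tarsl2 was 0.15 log2 lower with TCDD than with Cl-BBQ (difference -0.15, interval -0.39 to 0.09), and the groups overlapped. The gene was chosen for being low with both ligands, so this too is a description and carries no test. With Cl-BBQ replicate 3 left out the Tarsl2 difference was -0.07. Cyp1b1 was 2.37 log2 higher with TCDD than with Cl-BBQ (interval 1.65 to 3.08; limma adjusted p = 0.0356) and 1.85 higher without replicate 3. That call was lost in 12 of 21 alternatives, where the adjusted p over all 21 ran from 7.0e-07 without replicate 3 to 0.42 with the 2 groups alone.

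Of the 34 members other than Tarsl2 none was called between the ligands, where 0.0150% of all genes were called, and none had an unadjusted p under 0.05 (2.99% of all genes did, 1.37% in the lower direction). The difference was below 0 for 12 of the 34, against 52.0% of all genes and 41.9% of the genes brighter than the median member. The median was 0.02, against 0.011 over those brighter genes. Without Cl-BBQ replicate 4 that number was 19 (median -0.0058), and after median centring it was 6 (median 0.04). The differences of the 34 ran from -0.11 for Fars2 to 0.08 for Lars. Fars2, the mitochondrial phenylalanyl enzyme, read 9.15, 9.44, 9.28 and 9.51 with TCDD and 9.27, 9.62, 9.43 and 9.48 with Cl-BBQ, a wide scatter in both groups. Lars read 11.60, 11.61, 11.55 and 11.58 with TCDD and 11.66, 11.49, 11.53 and 11.33 with Cl-BBQ, where replicate 4 was low. In Lars the TCDD arrays lay within a narrow band. Ears2 read 7.56, 7.65, 7.51 and 7.53 with Cl-BBQ (TCDD minus Cl-BBQ, -0.09). Iars2, the isoleucyl enzyme of mitochondria, read 10.36, 10.43, 10.41 and 10.48 with TCDD and 10.28, 10.42, 10.37 and 10.36 with Cl-BBQ (0.06), against 10.49, 10.33, 10.28 and 10.61 with vehicle. Sars2, the mitochondrial seryl enzyme, read 8.29, 8.57, 8.36 and 8.39 with Cl-BBQ (0.07). The groups of all these genes overlapped. Hars, the histidyl enzyme, was the member whose groups did not overlap, at 0.05 higher with TCDD, where this held for 2.04% of all genes in either direction and 0.797% in the lower direction. The intervals of the 34 genes all lay within -0.32 to 0.25.

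Array by array, the synthetases other than Tarsl2 moved together within the vehicle group. Taken relative to the mean of the 4 vehicle arrays, 0 of 18 cytosolic genes lay below it on vehicle replicate 1, 18 of 18 on replicate 2, 16 of 18 on replicate 3 and 1 of 18 on replicate 4. The medians of these deviations were 0.09, -0.13, -0.07 and 0.09. The mitochondrial genes followed, with 3, 12, 16 and 2 of 16 below the mean and medians of 0.07, -0.05, -0.10 and 0.09. The median of all genes stayed between -0.012 and 0.010 on these arrays, and that of the genes brighter than the median member between -0.05 and 0.04. Tarsl2 deviated the same way on each, by 0.18, -0.16, -0.24 and 0.23.

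**Figure D3:**
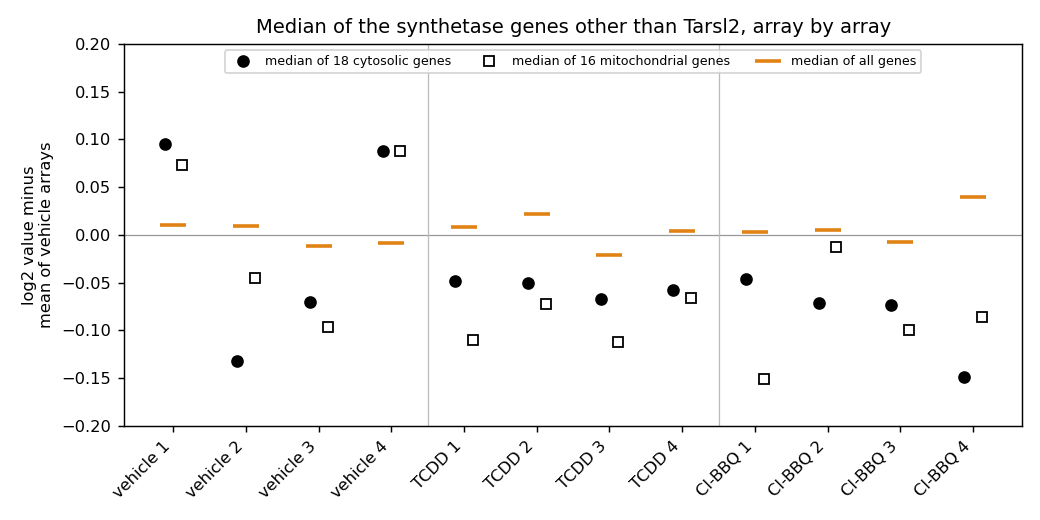
Median log2 deviation from the mean of the vehicle arrays (vertical axis) on each of the 12 arrays for 18 cytosolic genes without Tarsl2 (filled circles), 16 mitochondrial genes (open squares) and all genes (bars). Vehicle replicates 1 and 4 lie at 0.07 to 0.09, and vehicle replicates 2 and 3 lie below 0 among the ligand arrays.

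On the TCDD arrays the cytosolic medians were close together, at -0.05, -0.05, -0.07 and -0.06, and on the Cl-BBQ arrays they were -0.05, -0.07, -0.07 and -0.15. The lower pair of vehicle arrays, at -0.13 and -0.07, lay below the TCDD range. By these cytosolic medians only vehicle replicates 1 and 4 lay above the TCDD arrays. The mitochondrial medians were -0.11, -0.07, -0.11 and -0.07 on the TCDD arrays and -0.15, -0.01, -0.10 and -0.09 on the Cl-BBQ arrays. By the mitochondrial medians vehicle replicate 2 (-0.05) lay above the TCDD arrays as well. This describes medians and does not hold for each gene: for Farsb all vehicle arrays lay above all TCDD arrays. The spread among vehicle arrays was larger than the difference between groups. Replicate 4 of Cl-BBQ was the lowest array for the cytosolic genes, with 15 of 18 below the vehicle mean. For the mitochondrial genes the lowest was Cl-BBQ replicate 1, with 16 of 16 below it. For Tarsl2 the ligand arrays lay 0.52 to 1.05 log2 below the vehicle mean (-1.05 on TCDD replicate 1), further than any vehicle array.

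**Figure D4:**
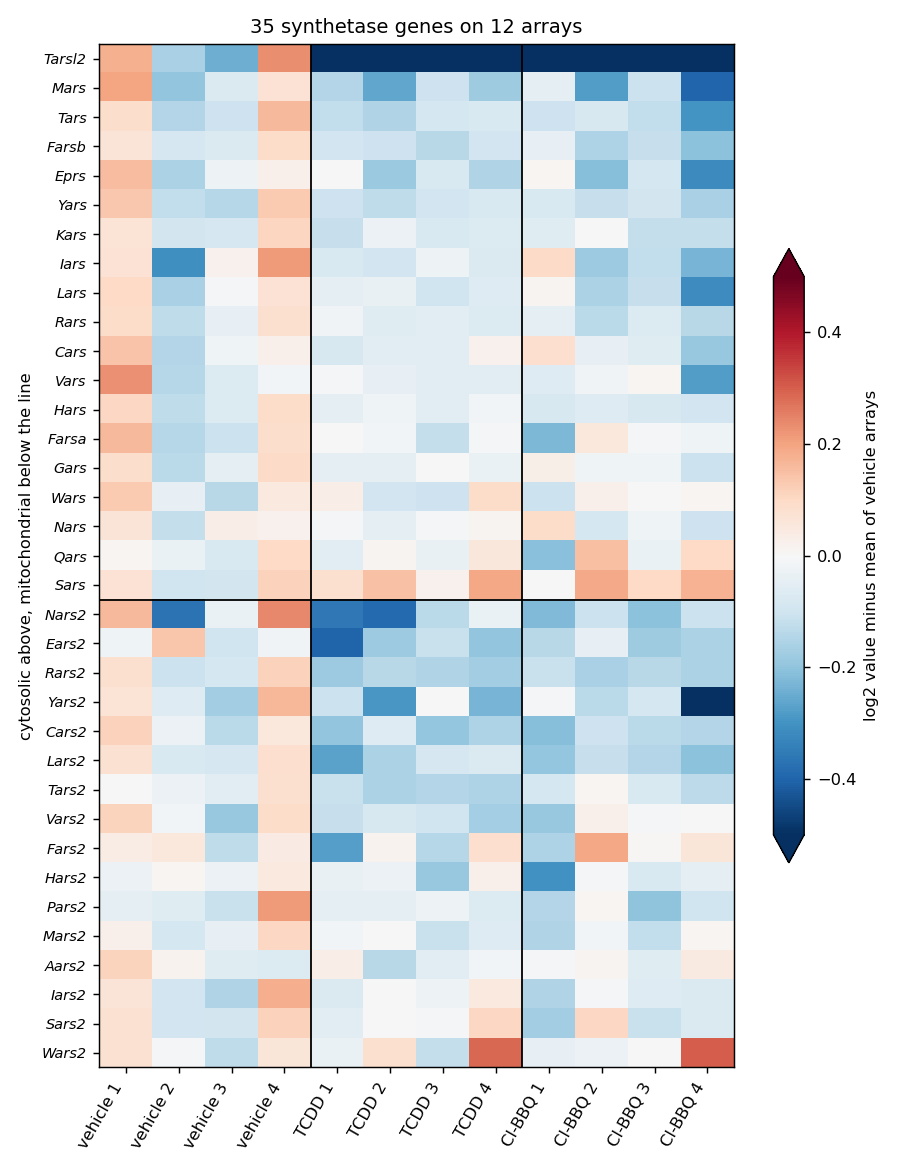
Log2 value minus the mean of the vehicle arrays (colour) for 35 synthetase genes (rows, cytosolic above the line) on 12 arrays (columns); colours end at the limits of the bar, which Tarsl2 passes on all ligand arrays and Yars2 on Cl-BBQ replicate 4. Vehicle replicates 1 and 4 are red in most rows, and vehicle replicate 2 is blue in all cytosolic rows.

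The spread within groups (pooled SD) had a median of 0.10 over the 34 genes, against 0.11 over all genes. It was smallest for Tars2 (0.049) and largest for Nars2 (0.19), with Tarsl2 next at 0.19.

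The genes next to Tarsl2 in the RefSeq annotation are Tm2d3 and Tjp1. Tm2d3, the nearer one, read 9.95, 9.87, 9.62 and 9.78 with vehicle, 9.51, 9.73, 9.52 and 9.69 with TCDD and 9.48, 9.81, 9.70 and 9.81 with Cl-BBQ. Its groups overlapped, with differences of -0.19 (adjusted p = 0.588) and -0.10 (adjusted p = 0.815). Tjp1, a tight junction scaffold gene, differed by 0.06 (adjusted p = 0.955) and 0.12 (adjusted p = 0.819).

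Markers of other cells were read beside Tarsl2, since some of them fell too. In the B and plasma cell list 2 of 12 genes were called lower with TCDD (Cd22 and Bank1), against 0.366% of all genes. None of the list was called with Cl-BBQ. The genes of the list went both ways: 5 of the 12 were above 0 with TCDD (median -0.0098) and 6 with Cl-BBQ (median 0.0006). The mean log2 value of the list was 6.39 to 6.53 on vehicle, 6.29 to 6.40 on TCDD and 6.36 to 6.41 on Cl-BBQ arrays. Its summed intensity was 1208 to 1438 on vehicle, 1122 to 1218 on TCDD and 1149 to 1230 on Cl-BBQ arrays. Cd22 read 7.91, 8.26, 7.59 and 8.52 with vehicle and 7.06, 7.30, 7.13 and 6.96 with TCDD. Its differences were -0.95 with TCDD and -0.62 with Cl-BBQ. The lineage markers Cd79a and Ms4a1 were not called in either comparison, with differences of -0.15 and -0.12 with TCDD (adjusted p = 0.746 and 0.832) and 0.0069 and 0.05 with Cl-BBQ (adjusted p = 0.989 and 0.923). In the myeloid and dendritic list 2 of 19 were called lower with TCDD (Cd74 and Cd86) and 1 with Cl-BBQ (Cd86). The shares of all genes called lower were 0.366% and 0.0502%. Cd86 was the furthest from 0 of that list, at -0.80 with TCDD and -0.72 with Cl-BBQ. Of the 19 genes 10 were above 0 with TCDD (median 0.015) and 11 with Cl-BBQ (median 0.060). Summed intensities were 2170 to 2471 on vehicle, 2082 to 2196 on TCDD and 2078 to 2256 on Cl-BBQ arrays. No gene of the 11 for CD4 T cell identity, the 2 for CD8 cells, the 12 for neutrophils and platelets or the 4 for erythroid cells was called. The NK list of 6 had Gzma called higher with both ligands (2.41 and 1.53) and Eomes lower with TCDD (-0.64). The shares of all genes called were 1.24% with TCDD and 0.196% with Cl-BBQ. In that list 4 genes were below 0 with TCDD (median -0.01) and 4 with Cl-BBQ (median -0.11). Its summed intensity was 608 to 806 on vehicle, 1370 to 1811 on TCDD and 741 to 1171 on Cl-BBQ arrays. The part of other cells in the fall of Tarsl2 was not tested, and in such bulk RNA fewer cells of a type and less RNA per cell cannot be told apart.

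The other genes around tRNA and amino acid supply came from 7 lists with 109 measured genes. With TCDD 2 of the 109 were called, both lower, against 0.366% of all genes called lower; with Cl-BBQ none was called, against 0.196% of all genes. An unadjusted p under 0.05 was reached by 18 of the 109 with TCDD and by 12 with Cl-BBQ, against 8.69% and 7.91% of all genes. The difference was below 0 for 87 and 78 of them (medians -0.06 and -0.06), against 47.9% and 45.2% of all genes. For these lists the counts below 0 were not repeated with an array left out. The called genes, Rpp38 and Rpp40, both encode protein subunits of RNase P, the ribonucleoprotein that trims the 5′ end of precursor tRNAs. Rpp40 read 8.41, 8.04, 8.24 and 8.53 with vehicle, 7.78, 7.73, 7.78 and 7.86 with TCDD and 7.64, 7.93, 7.91 and 7.45 with Cl-BBQ. All ligand arrays lay below all vehicle arrays. It fell 1.43-fold with TCDD (difference -0.51, interval -0.75 to -0.28; adjusted p = 0.0311) and was 1.48-fold lower with Cl-BBQ without passing (-0.57; adjusted p = 0.0583). Rpp38 read 8.94, 8.60, 8.49 and 8.79 with vehicle, 8.26, 8.24, 8.40 and 8.39 with TCDD and 8.30, 8.44, 8.37 and 8.39 with Cl-BBQ. It fell 1.31-fold with TCDD (-0.39; adjusted p = 0.0473) and differed by -0.33 with Cl-BBQ (adjusted p = 0.207). Nupr1 was called as well after quantile normalization, and Myc with array weights. Both calls of RNase P genes with TCDD were lost after median centring, without any of the TCDD replicates, and without vehicle replicate 1 or 4. Rpp40 alone kept its call with every probe set on its own, with the 2 groups alone, and without Cl-BBQ replicate 2, 3 or 4 or vehicle replicate 2, and Rpp38 alone without vehicle replicate 3.

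**Figure D5:**
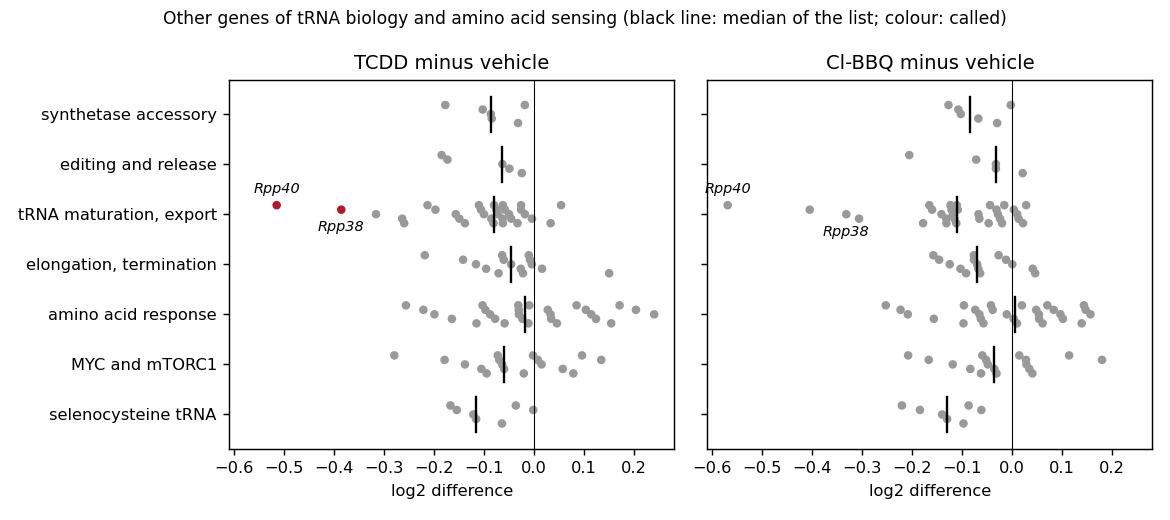
Log2 difference from vehicle (horizontal axis) of each measured gene in 7 lists of tRNA biology and amino acid sensing, with TCDD on the left and Cl-BBQ on the right; black lines are list medians and coloured points genes called in limma. Rpp40 and Rpp38 stand at the lower end with TCDD at -0.51 and -0.39, and no gene is called with Cl-BBQ.

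In the whole tRNA maturation and export list, Rpp38 and Rpp40 included, 29 of 31 genes were below 0 with TCDD (median -0.08) and 26 with Cl-BBQ (median -0.11), against 47.9% and 45.2% of all genes. Xpot, the export receptor of tRNA, differed by -0.26 and -0.31 without overlap and without passing (adjusted p = 0.178 and 0.175). Pus7, a pseudouridine synthase, differed by -0.32 and -0.40 (adjusted p = 0.333 and 0.243). Xpot and Pus7 were thus the next of that list, but not called.

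The scaffolds of the multisynthetase complex and the mitochondrial amidotransferase that makes glutaminyl-tRNA had 6 measured genes, all below 0 in both comparisons and none called (medians -0.09 and -0.09). Of all genes 47.9% and 45.2% were below 0. Aimp2, a scaffold, differed by -0.18 with TCDD (adjusted p = 0.456), Gatb by -0.10, and Qrsl1, the amidotransferase subunit, by -0.13 with Cl-BBQ, where Aimp2 differed by -0.11. Of 5 editing and release genes Dtd1, a D-aminoacyl-tRNA deacylase, had a difference of -0.18 with TCDD (adjusted p = 0.232) and -0.07 with Cl-BBQ. Aarsd1, an alanyl-editing protein, had -0.17 with TCDD and -0.21 with Cl-BBQ (adjusted p = 0.525). Of 15 elongation and termination genes none was called. Mrrf, the mitochondrial ribosome recycling factor, differed by -0.22 with TCDD (adjusted p = 0.178), Eef1a2 by 0.15, and Tufm and Gfm1, mitochondrial elongation factors, by -0.16 and -0.15 with Cl-BBQ. Of 7 selenocysteine tRNA genes all were below 0 in both comparisons and none was called, with Eefsec at -0.17 and Trnau1ap at -0.15 with TCDD, and Trnau1ap at -0.22 and Sepsecs at -0.18 with Cl-BBQ.

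The amino acid response list, with ATF4 and its known targets, held 28 measured genes. None was called, 16 were below 0 with TCDD and 13 with Cl-BBQ, and the medians were -0.02 and 0.0061. Asns, asparagine synthetase, read 8.76, 8.03, 8.30 and 8.66 with vehicle, 8.10, 8.26, 8.02 and 8.33 with TCDD and 8.71, 8.10, 8.22 and 7.70 with Cl-BBQ. Its vehicle arrays showed the same higher pair (1 and 4) as the cytosolic synthetases, and its differences of -0.26 and -0.25 did not pass (adjusted p = 0.785 and 0.771). Nupr1, a stress-induced gene, had the highest difference with TCDD (0.24; adjusted p = 0.113), Slc7a5, a large neutral amino acid transporter, differed by -0.22 in both comparisons, and Atf4 itself by -0.01 and -0.04. In the MYC and mTORC1 list none of 17 was called. Myc, which drives growth genes in activated T cells, read 10.95, 10.86, 10.82 and 10.67 with vehicle and 10.43, 10.49, 10.61 and 10.65 with TCDD, without overlap (-0.28; adjusted p = 0.127), and differed by -0.17 with Cl-BBQ. Sesn1 differed by -0.18 with TCDD, and Odc1 by -0.21 and Castor1 by 0.18 with Cl-BBQ.

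Between the ligands none of the 109 genes was called, against 0.0150% of all genes, and 2 had an unadjusted p under 0.05, a smaller share than the 2.99% of all genes: Sesn1, a leucine sensor, at -0.21 and Sepsecs, which makes selenocysteinyl-tRNA, at 0.18 (TCDD minus Cl-BBQ). The other genes furthest from 0 in their lists were Ddit3 at -0.15, Mrrf at -0.12, Qrsl1 at 0.11, Dtd1 at -0.11, Chac1 at -0.11, Myc at -0.11, Clp1 at 0.10, Eef1a2 at 0.10, Thg1l at -0.10, Aimp1 at -0.08, Trnau1ap at 0.07 and Dtd2 at -0.05.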

How the data were processed

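The deposited values were log2 intensities that the authors made with robust multi-array average (RMA), per the submitters' processing notes; the sources used here do not give its version, probe library or genome build, and the log2 scale was read from the values (2.49 to 14.2, array medians 7.11 to 7.24). Per the labels' protocols the RNA was labelled from an oligo-dT primer with a kit for 3′ arrays, whereas the probe table is that of a whole-transcript array; what this does to a probe set's value was not tested. RMA equalises arrays, so a shift of all genes alike would not be seen. Gene names came from the platform table: 21789 of 35556 probe sets carried 1 symbol, and the probe set with the highest mean was kept for each of 19938 genes. A linear model of group means over all 12 arrays was fitted with limma 3.58.1 in R 4.3.3, which left 9 residual degrees of freedom, with a trend of the variance on intensity. Two-sided p-values were adjusted by Benjamini-Hochberg over every gene tested, and calls needed an adjusted p under 0.05. Intervals are at 95% and were not corrected for the number of genes; the number of arrays limits their precision. The fit was tested on simulated data. Figures were drawn with matplotlib 3.10.9 in Python 3.11.15.

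The members and gene lists were chosen with earlier results of these data known. Named with values by array were the threonyl genes, the members with the 3 lowest and 3 highest differences per comparison, Rpp38, Rpp40 and Tm2d3. Cyp1b1 and Nqo1 were given by array or range, and Tjp1 by its differences. Of the tRNA and amino acid lists, the 2 genes with the largest difference per comparison were named. Of the called marker genes, Cd22 was given by array for vehicle and TCDD, and the others by name or difference. Members named for not overlapping, and Cd79a, Ms4a1, Cd22, Atf4, Xpot and Pus7 where beyond that rule, were chosen after their values were seen. Deviations from the group means were correlated across genes between same-numbered arrays. For TCDD and Cl-BBQ the correlations were 0.606, 0.113, 0.157 and 0.365, and for pairs with vehicle -0.13 to 0.18. Replicates 2 and 3 of the ligands thus lay within the range of the pairs with vehicle. Differently numbered arrays were not compared, and the labels do not say what a number shares, so a pairing is not established. The main fit left the number out, and an alternative took it as a block. The labels call the samples biological replicates. Alternatives were 2 other scalings, a filter on dim genes, other uses of probe sets, the 2 groups alone, array weights, no trend, the block and each array left out.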

Additional observations from a re-analysis of the deposited data

Results flagged for a closer look

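In 4 of 105 combinations of a member and a group of 4 arrays, 1 array stood apart by more than Dixon's 95% critical value; chance gives about 1 such case in 20 groups. Farsa was at 9.53 on TCDD replicate 3, where the nearest other TCDD array was at 9.64. Fars2 was at 9.30 on vehicle replicate 3, with the nearest at 9.46. Vars2 was at 7.81 on Cl-BBQ replicate 1, with the nearest at 7.99. Wars2 was at 8.15 on Cl-BBQ replicate 4, with the nearest at 7.85. Those arrays differ from case to case.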

How the results depend on the processing

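Under the 21 alternatives the count of called members other than Tarsl2 stayed at 0 in both comparisons with vehicle and between the ligands; the lowest adjusted p any of them reached was 0.152 with TCDD, 0.262 with Cl-BBQ and 0.753 between the ligands. With the replicate number as a block these counts were also 0, and it changed no call of a member. Tarsl2 differed from vehicle by -0.98 to -0.82 with TCDD and by -0.83 to -0.67 with Cl-BBQ. Of 109 other tRNA and amino acid genes, 2 were called with TCDD; the count was 3 after quantile normalization (Nupr1 higher, besides Rpp38 and Rpp40), 3 with array weights (Myc lower, besides both), 0 after median centring, 1 with every probe set on its own, 1 with the 2 groups alone and 0 to 2 with each array left out. With Cl-BBQ the count of 0 became 1 (Rpp40) after quantile normalization and 1 without dim genes, and was 0 to 1 with each array left out. Over all genes 247 were called with TCDD (150 to 480 under the alternatives), 39 with Cl-BBQ (3 to 71) and 3 between the ligands (0 to 53, the highest with the replicate block). The dim filter removed Aars2 and Pars2. The cause of these shifts was not tested.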
